A study of Mus musculus with 26 samples.

Results

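Pre-plasmablasts (prePB), which carried the EGFP-BLIMP1 reporter signal but no surface CD138, were compared with Blast cells of the same kind of culture, which had neither. Members were taken by their labels and columns: 2 prePB and 2 Blast libraries out of 26 libraries in the series. The cells were C57BL/6 mouse B cells, homozygous for a knock-in that fuses EGFP to the N terminus of the BLIMP1 protein, so Blast cells carried the reporter allele as well. B cells were cultured for 3 days with LPS at 10 ng/mL and IL-4 at 2 ng/mL and then sorted as GFP-, CD138- (Blast), GFP+, CD138- (prePB) or GFP+, CD138+ (plasmablasts, PB). Unstimulated B cells were B220/CD45R+ cells sorted from the spleens of mice aged 8 to 10 weeks. The PB and B cell libraries (n = 2 each) entered the same fit and are given beside the comparison for orientation. No label says whether the replicates came from separate mice or cultures, so each p-value reflects only how far these libraries vary, which may be technical.

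LPS and IL-4 make resting B cells grow, divide and, in part of the cells, switch to antibody secretion. BLIMP1, encoded by Prdm1, is a zinc finger repressor that marks this switch: it is known to shut down genes of the B cell state, while IRF4 and XBP1 drive antibody production and the growth of the endoplasmic reticulum (ER). CD138, encoded by Sdc1, appears on the surface later, so the GFP+, CD138- gate holds cells that have turned on BLIMP1 without yet having reached the plasmablast surface type.

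Libraries were 3' RNA-seq amplified from 1 ng of RNA, and values are RPM, reads divided by the total of their library, as deposited. The most common value above 0 in a library was taken as 1 read, though some values were smaller. This gave depths of 3.94 and 3.46 M reads for Blast and 3.28 and 3.34 M reads for prePB, with 1 read worth 0.254 to 0.305 RPM. The gene lines used held 960060 and 954939 RPM in Blast but 864611 and 827448 RPM in prePB and 688942 and 650799 RPM in PB. Most immunoglobulin genes were in lines not analysed here. Values are therefore given on the deposited scale, and list counts and the calls that it changes also after median-of-ratios scaling, which divides each library by the median ratio of its genes to their mean over the libraries. Libraries of a group were closer to each other (Pearson's r across 8967 genes on the log2 scale 0.967 within Blast and 0.967 within prePB) than to the other group (0.898 to 0.914). These are descriptions across genes, which are not independent replicates.

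The gates were checked first. Prdm1 (Entrez ID 12142; chromosome 10, 44437174 to 44528558, GRCm38.p6) stood at 3.30 and 2.31 RPM in Blast and at 135 and 155 RPM in prePB. The groups lay far apart, as the sort on the BLIMP1 fusion fixes. Sdc1, which encodes CD138, was listed at 0 in both Blast libraries and at 0 and 0.300 RPM in prePB. It was below the expression filter used throughout, at least 5 RPM in 2 or more of the 4 libraries. B cell markers were present in all 4 libraries: Cd79a, a signalling chain of the B cell receptor, stood at 752 and 828 RPM in Blast and 1256 and 1313 RPM in prePB. Cd79a had the highest log2 fold change (0.70) of 10 tested B cell markers. Their median was -0.43 (-0.20 with the scaling described above), and 3 lay above 0. By the rule for calls given below, 2 of the 10 fell and 0 rose, where 6.09% of all genes fell and 4.35% rose. Of 24 myeloid, NK cell and T cell markers, 19 were below the filter, and 4 of these (Klrd1, Klrb1c, Itgam and S100a8) were at 0 in all 4 libraries. Their summed level was 98.2 and 186 RPM in Blast and 61.5 and 64.5 RPM in prePB. Cd3e, which defines T cells, was at 0 and 0.289 RPM in Blast and at 0 in prePB, while Cd8a stood at 4.57 and 8.09 RPM in Blast and 0 and 2.40 RPM in prePB. All 9 erythroid and platelet markers that were matched were below the filter.

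The gain of the reporter went with a change in 936 of 8967 genes tested (10.4%). Of these, 390 (4.35%) rose and 546 (6.09%) fell in prePB. A gene was called, written here as rose or fell, at an adjusted p under 0.05 (limma with Benjamini-Hochberg adjustment over all genes tested) and a log2 fold change of 1 or more in either direction, on the log2(RPM + 1) scale. This scale understates the change of low genes. With median-of-ratios scaling 828 genes (9.23%) were called, 523 (5.83%) higher and 305 (3.4%) lower. Rises therefore made up 41.7% of the calls as deposited and 63.2% with scaling. The median log2 fold change of all genes tested was -0.25 as deposited and -0.032 with scaling. The shift between the 2 scales differed between genes. Gbp2, for example, moved from -3.54 to -3.32 with scaling, while Tg, listed at 0 in Blast, had 3.89 on both. All 390 genes that rose as deposited also rose with scaling, 305 of the 546 that fell also fell with scaling, and 0 were called in opposite directions. In bulk samples, fewer cells that express a gene and less RNA per cell cannot be told apart. The gene lists that follow were chosen with earlier results of these data known, so their counts and shares are descriptions. Statements below that groups did not overlap compare 2 libraries with 2, for genes mostly picked by size of change. The share of all genes tested without overlap is not given, so these statements add no support to the calls.

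**Figure D1:**
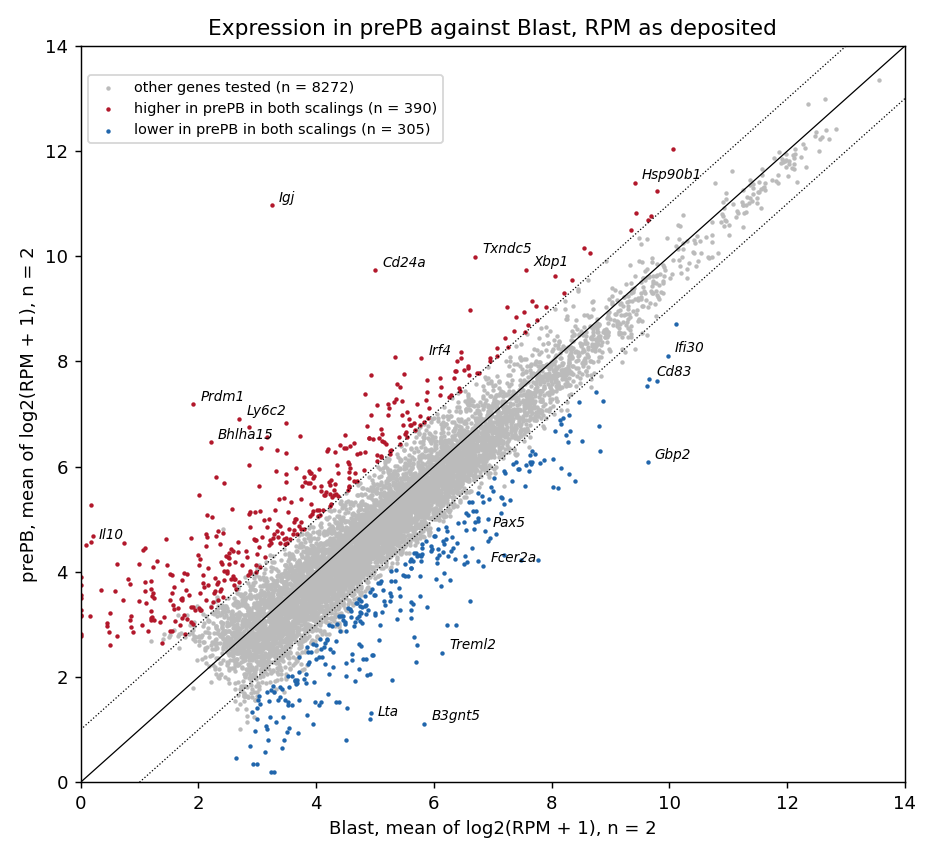
Mean log2(RPM + 1) of the 2 prePB libraries (vertical axis) against the 2 Blast libraries (horizontal axis) for 8967 genes, as deposited. Red points are the 390 genes called higher and blue points the 305 called lower in both scalings, grey points all other genes tested; the solid line marks equal levels and the dotted lines a log2 difference of 1. Igj, Prdm1 and Cd24a stand far above the line of equal levels, and B3gnt5 and Lta far below it.

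The largest rise was that of Igj, which encodes the joining chain of polymeric IgM and IgA (RefSeq Jchain, Entrez ID 16069; chromosome 5, 88519809 to 88527897). It stood at 14.98 and 4.62 RPM in Blast and at 2005 and 1999 RPM in prePB, a log2 fold change of 7.72 ± 0.31 (SE; adjusted p = 2.7e-10, limma). The groups did not overlap. PB had 13441 and 12805 RPM, and unstimulated B cells 1825 and 1692 RPM, far above Blast. Cd24a, a small glycosylated surface protein, showed the same order of groups, with 538 and 583 RPM in B cells, 39.1 and 24.6 RPM in Blast, 861 and 842 RPM in prePB and 1340 and 1188 RPM in PB. Its rise in prePB was 4.73 ± 0.19 (adjusted p = 2.7e-10, limma). Ly6c2, a GPI-anchored surface protein, rose by 4.21 ± 0.22, from 4.40 and 6.79 RPM to 99.0 and 143 RPM. Its near-identical neighbour Ly6c1 rose by 2.10 ± 0.25, and the rules for reads that fit both copies are not given in the sources used here.

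Il10, the gene of the anti-inflammatory cytokine interleukin 10 (Entrez ID 16153; chromosome 1, 131019845 to 131024970), was near 0 outside the reporter-positive cells of the B lineage. It was at 0 and 0.289 RPM in Blast, the second value being 1 read, and at 19.8 and 25.8 RPM in prePB. The difference on the log2(RPM + 1) scale was 4.38 ± 0.49 (adjusted p = 1.35e-05, limma). PB had 14.5 and 5.62 RPM, and B cells 0 and 0.723 RPM. Of 14 tested genes of cytokines and the TNF family, 1 rose (Il10) and 2 fell as deposited. Of all genes tested, 4.35% rose and 6.09% fell. With scaling 2 rose and 2 fell, where 5.83% and 3.4% of all genes did. Lta (lymphotoxin alpha) fell by 3.71 on the log2 scale, from 37.6 and 22.5 RPM to 3.05 and 0.300 RPM, and Tnf fell by 2.18, from 21.1 and 26.0 RPM to 3.36 and 5.70 RPM. The groups did not overlap for either gene.

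Other genes among the 15 largest rises were of several kinds. C630004H02Rik, which RefSeq names Hid1, was at 0 and 0.289 RPM in Blast and 40.0 and 35.7 RPM in prePB. Prg2, known as a granule protein of eosinophils, stood at 0.762 and 0.578 RPM in Blast and at 31.1 and 16.2 RPM in prePB. Ttc39c stood at 0.508 and 0.578 RPM in Blast, 14.7 and 18.9 RPM in prePB, and 3.69 and 3.98 RPM in PB. All of these lay higher in both prePB libraries than in either Blast library. Tg, the gene of thyroglobulin, was listed at 0 in both Blast libraries and at 12.8 and 14.99 RPM in prePB, and it overlaps Sla in the annotation, so the reads cannot be placed on one of them. Cpeb3, an mRNA-binding protein, was also listed at 0 in Blast and stood at 11.6 and 13.5 RPM in prePB; it overlaps Marchf5 and A330032B11Rik, with the same limit. Trp73, a p53-family factor, was listed at 0 in Blast and stood at 8.24 and 14.1 RPM in prePB. 4933402N22Rik and Gm5861 rose with closely similar values (log2 fold changes 4.47 and 4.41) and may share reads, so they are uncertain as separate genes.

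Of 12 tested transcription factors of plasma cells, 7 rose and 0 fell as deposited (where 4.35% of all genes rose) and 9 rose with scaling, with a median log2 fold change of 1.26 against -0.25 over all genes tested. Prdm1 is 1 of the 7 and was fixed by the sort. Xbp1, which drives the secretory program (Entrez ID 22433; chromosome 11, 5520641 to 5525993), stood at 180 and 197 RPM in Blast, 802 and 911 RPM in prePB and 1843 and 1798 RPM in PB. Its log2 fold change between Blast and prePB was 2.17 ± 0.16 (adjusted p = 1.91e-07, limma). Irf4 (Entrez ID 16364; chromosome 13, 30749233 to 30766981) stood at 59.9 and 49.1 RPM in Blast, 245 and 290.5 RPM in prePB and 335 and 289 RPM in PB, and rose by 2.28 ± 0.17 (adjusted p = 2.3e-07, limma). For Irf4, unlike Xbp1, the ranges of prePB and PB overlapped. Bhlha15 (MIST1), a factor of secretory cells (Entrez ID 17341; chromosome 5, 144190286 to 144194441), went from 6.09 and 2.02 RPM to 84.3 and 90.2 RPM, a rise of 4.25 ± 0.31.

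Creb3l2, a membrane-bound factor released from the ER, stood at 1.78 and 4.91 RPM in Blast and 42.8 and 43.8 RPM in prePB and rose by 3.45 ± 0.31. Ell2, an elongation factor known to favour the secreted form of immunoglobulin mRNA, rose by 1.44 ± 0.16, from 76.4 and 88.1 RPM to 228 and 219.9 RPM. Both genes had all prePB values above all Blast values. Zbtb20 rose by 1.08 ± 0.33, but prePB replicate 1 had 39.4 RPM and replicate 2 18.6 RPM. The call of Zbtb20 was lost without prePB replicate 1 (0.556) and also without Blast replicate 1 (0.948) or Blast replicate 2 (1.21, adjusted p = 0.064, limma). Atf6, a sensor of ER stress, stood at 37.3 and 32.7 RPM in Blast and 68.1 and 68.3 RPM in prePB; its change of 0.95 missed the fold threshold as deposited and passed it with scaling (1.17) or without Blast replicate 1 (1.04). Atf4 (0.40) and Zbtb32 (-0.34) were not called.

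**Figure D2:**
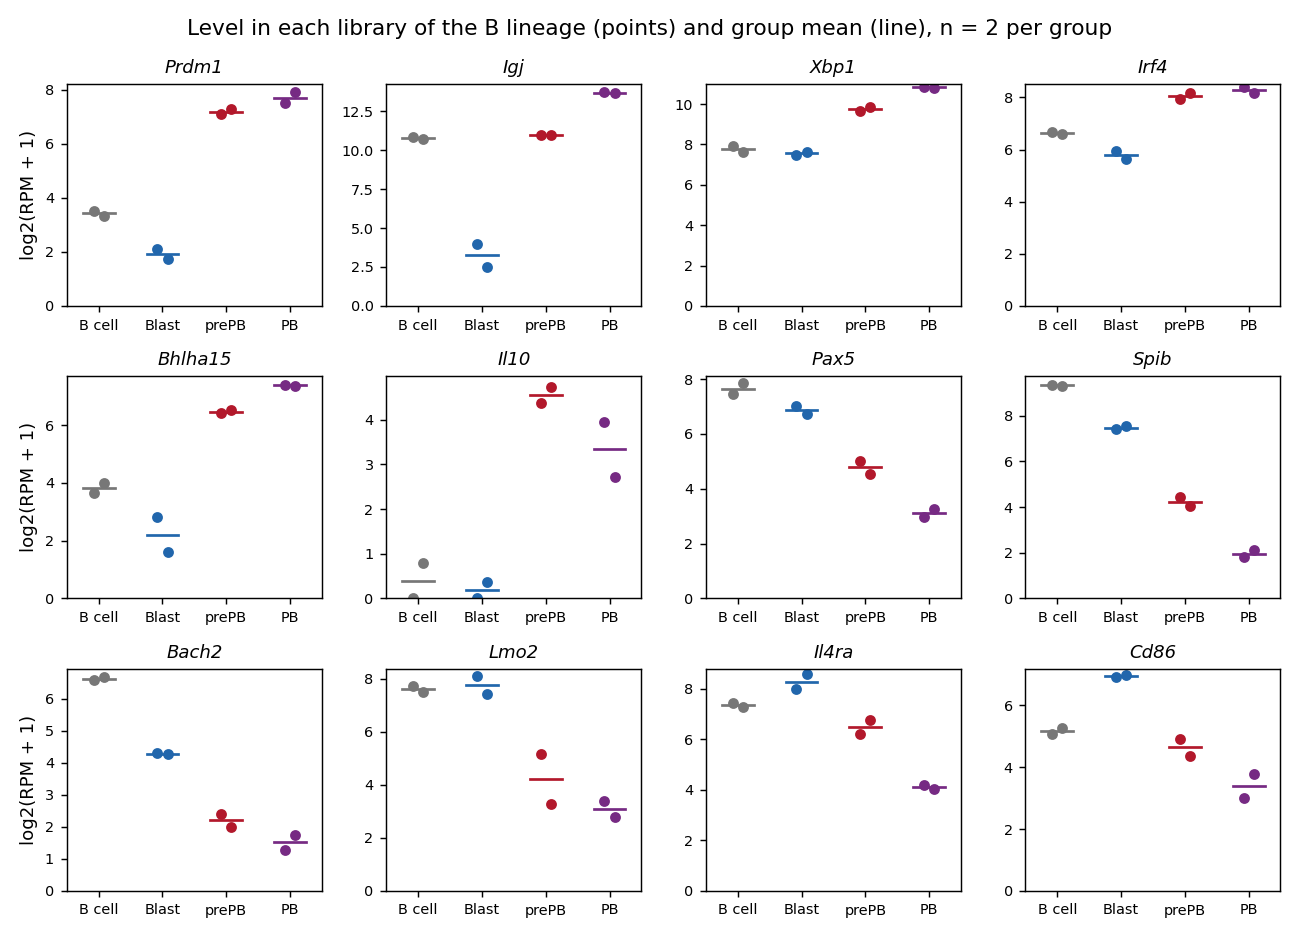
Level as log2(RPM + 1) (vertical axis) in each library of unstimulated B cells, Blast, prePB and PB (horizontal axis) for 12 genes; points are libraries and lines the mean of the 2 libraries of a group. In the first 6 panels, Prdm1 to Il10, both prePB points lie above both Blast points, and in the last 6, Pax5 to Cd86, both lie below.

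Of 23 tested B cell transcription factors, 9 fell and 1 rose as deposited (where 6.09% of all genes fell and 4.35% rose) and 8 fell and 2 rose with scaling, with a median log2 fold change of -0.73 (-0.50 with scaling). Spib, an ETS factor (Entrez ID 272382; chromosome 7, 44525995 to 44532087), stood at 170 and 186 RPM in Blast and 20.8 and 15.3 RPM in prePB, a log2 fold change of -3.25 ± 0.20 (adjusted p = 4.67e-08, limma). Lmo2, a bridging protein of transcription complexes, went from 276 and 172 RPM to 34.8 and 8.69 RPM (-3.55 ± 0.42). Aff3, of the AF4 family, went from 77.2 and 87.5 RPM to 7.63 and 6.30 RPM (-3.39 ± 0.31). In each of the 3, both prePB libraries were lower than both Blast libraries. Klf2, a factor of quiescent lymphocytes, differed within Blast (8.38 and 45.4 RPM) and stood at 2.75 and 1.20 RPM in prePB (-2.86 ± 0.58); its call was lost without the expression filter (adjusted p = 0.0638, limma).

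Pax5, the factor that keeps B cell identity (Entrez ID 18507; chromosome 4, 44524748 to 44710694), stood at 127 and 106 RPM in Blast, 31.4 and 22.2 RPM in prePB and 6.80 and 8.67 RPM in PB. Its fall between Blast and prePB was -2.09 ± 0.23 (adjusted p = 1.29e-05, limma). Bach2, a repressor of Prdm1, stood at 18.8 and 18.2 RPM in Blast and at 4.27 and 3.00 RPM in prePB (-2.09 ± 0.31). Bcl6, the factor of germinal centre B cells, was below the filter, with 5.58 and 3.47 RPM in Blast and 0 and 0.899 RPM in prePB. Ikzf3 (Aiolos) was the 1 factor of this list that rose, from 76.7 and 107 RPM to 222 and 231 RPM (1.31 ± 0.18). Pou2af1, a coactivator at immunoglobulin promoters, stood at 651 and 787 RPM in Blast and 1246 and 1369 RPM in prePB; its change of 0.87 passed the fold threshold with scaling (1.09). Without Blast replicate 2 Pou2af1 was also called as deposited (1.00). Ebf1 (-1.01, adjusted p = 0.0555, limma) was not called, but was without prePB replicate 2 (-1.35, adjusted p = 0.0437, limma).

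Of 9 known B cell targets of BLIMP1 repression, 8 were tested, and 6 fell as deposited (where 6.09% of all genes fell) and 5 with scaling, with a median log2 fold change of -1.98. The list shares Pax5, Spib, Bach2, Id3 and Bcl6 with the list of B cell factors above. Ciita, the master coactivator of MHC class II genes, stood at 109 and 78.0 RPM in Blast and 45.5 and 43.8 RPM in prePB (-1.03 ± 0.29). It was lower in each prePB library than in each Blast library. The call of Ciita was lost with scaling (-0.80), without Blast replicate 1 (-0.793) and without prePB replicate 1 (-1.06, adjusted p = 0.0583, limma) or prePB replicate 2 (-1.0, adjusted p = 0.0824, limma). Id3 (-0.76) was not called. Myc (-0.72) was not called either, but its value rested on the Blast libraries (76.7 and 149 RPM): it was -1.19 and called without Blast replicate 1 (adjusted p = 0.00434, limma) and -0.244 without Blast replicate 2.

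Of 14 tested genes of MHC class II presentation 3 fell as deposited (21.4%, where 6.09% of all genes fell) and 1 with scaling (where 3.4% of all genes fell), with a median log2 fold change of -0.47. H2-Ab1, a class II beta chain, stood at 3481 and 3505 RPM in Blast, 3799 and 3729 RPM in prePB and 1688 and 1694 RPM in PB. Cd74, the invariant chain, stood at 1188 and 1066 RPM in Blast and at 1216 and 1043 RPM in prePB, with overlapping ranges and a log2 fold change of 0.00 ± 0.17. The member that fell on both scales was Ifi30, a thiol reductase of antigen processing, from 765 and 1316 RPM to 210 and 361 RPM (-1.86 ± 0.25). H2-Oa, a chain of the class II modulator H2-O, went from 116 and 124 RPM to 51.9 and 62.1 RPM (-1.06 ± 0.18); it was not called with scaling (-0.84) or without prePB replicate 1 (-0.936). Ciita was the other that fell as deposited, and in PB it had 2.55 and 0.703 RPM.

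The B cell receptor and its coreceptors were split. Of 26 tested genes 8 fell and 2 rose as deposited (where 6.09% of all genes fell and 4.35% rose), and 7 fell and 4 rose with scaling. Their median changed sign with the scaling (-0.10 as deposited, 0.11 scaled). The deepest falls were Fcer2a (CD23, the low-affinity IgE receptor; chromosome 8, 3680280 to 3694174), from 108 and 119 RPM to 15.6 and 17.1 RPM (-2.72 ± 0.23), and Cd22, an inhibitory coreceptor, from 260 and 259 RPM to 93.7 and 51.6 RPM (-1.88 ± 0.38). The call of Cd22 was lost without the expression filter (adjusted p = 0.0641, limma). Faim3, the IgM Fc receptor, fell by 1.64 and Cd37, a tetraspanin, fell by 1.62. Fcrla, an intracellular Fc receptor-like protein, rose from 10.2 and 4.91 RPM to 39.1 and 60.9 RPM (2.62 ± 0.26). Cd79a (0.70), Ptprc (0.09) and Ms4a1 (-0.96) were not called; Ms4a1, which encodes CD20, was called without Blast replicate 2 (-1.13) or prePB replicate 1 (-1.20). For Ptprc, which encodes B220/CD45, the libraries ranged from 203 to 254 RPM in Blast and from 223 to 261 RPM in prePB.

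Plasma cell surface and secreted proteins were the list with the highest median, 2.09 as deposited and 2.31 scaled: 15 of 21 tested rose and 0 fell, where 4.35% of all genes rose. Igj, Cd24a, Il10, Ly6c2 and Prg2, described above, belong to it. Like the other lists, this list was chosen with earlier results of these data known, so its share is a description only. Pon3, a lactonase, stood at 3.55 and 4.33 RPM in Blast, 53.7 and 56.4 RPM in prePB and 196 and 232 RPM in PB. Fam46c, a poly(A) polymerase mutated in myeloma, went from 10.7 and 9.82 RPM to 123 and 104 RPM (3.35 ± 0.20). Each prePB value of these genes exceeded each Blast value. Tnfrsf17 (BCMA), the survival receptor of plasma cells, was at 0 in all 4 libraries, and Tnfrsf13b (TACI), its relative, stood at 233 and 313 RPM in Blast and 222 and 238 RPM in prePB (-0.23 ± 0.18).

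Each of 5 lists that follow a secretory protein from the ER membrane to the Golgi held genes that rose, and 0 of their members fell. Of the 139 tested genes in these lists 47 rose and 92 were not called (33.8% rising, where 4.35% of all genes rose). With scaling 58 rose (41.7%, where 5.83% of all genes rose). The lists were ER chaperones and disulfide enzymes (18 of 30 rose, 21 with scaling; median log2 fold change 1.06), ER-associated degradation (10 of 21, 11 with scaling; 0.80), translocon and signal peptide handling (7 of 24, 11 with scaling; 0.69), ER to Golgi transport (8 of 36, 9 with scaling; 0.55) and N-glycosylation (4 of 28, 6 with scaling; 0.35). Many of these rises lie close to the fold threshold, so that leaving out 1 library moved single members across it.

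At the translocon, Ssr2, a subunit of the translocon-associated complex, stood at 136 and 168 RPM in Blast and 532 and 522 RPM in prePB (1.79 ± 0.16). Sec11c, the catalytic subunit of signal peptidase, went from 279 and 254 RPM to 820 and 766 RPM (1.57 ± 0.16). Srprb, of the signal recognition particle receptor, rose by 1.54 and Spcs1, a further signal peptidase subunit, rose by 1.49. None of these 4 had overlapping groups. In N-glycosylation, the 4 rises were Rpn1, Krtcap2, Ddost and Ostc, all subunits of the oligosaccharyltransferase. Rpn1 rose by 1.20 ± 0.17 (293 and 359 RPM to 719 and 774 RPM). The other 3 rose by 1.13, 1.07 and 1.06, and each fell under the threshold of 1 when a library was left out: Krtcap2 without prePB replicate 1 (0.897), Ddost without Blast replicate 1 (0.954), and Ostc without Blast replicate 1 (0.965) or prePB replicate 2 (0.957).

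Among folding enzymes, Txndc5, a disulfide isomerase, stood at 80.2 and 133 RPM in Blast, 1059 and 972 RPM in prePB and 2878 and 2287 RPM in PB, a rise of 3.28 ± 0.21 in prePB (adjusted p = 4.72e-08, limma). Fkbp11, a prolyl isomerase of secretory cells, went from 5.33 and 10.1 RPM to 91.6 and 70.7 RPM (3.28 ± 0.25). Ero1lb, the oxidase that recharges disulfide isomerases, went from 35.8 and 24.6 RPM to 210 and 217 RPM (2.81 ± 0.18). In all 3, the lowest prePB value was more than the highest Blast value. Dnajb9, a cochaperone of the Hsp70 of the ER, rose by 2.05 ± 0.17, from 29.7 and 29.2 RPM to 120 and 131 RPM. Hsp90b1, the Hsp90 of the ER, rose by 1.99 ± 0.20, from 573 and 804 RPM to 2678 and 2699 RPM. Hspa5 (BiP), the Hsp70 of the ER, stood at 755 and 891 RPM in Blast and 1786 and 1706 RPM in prePB, and its rise of 1.09 ± 0.19 fell to 0.969 without Blast replicate 1. The lectin chaperones Calr (0.66) and Canx (-0.36) were not called.

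In ER-associated degradation, which removes misfolded proteins, Derl3, a channel component, went from 27.7 and 26.9 RPM to 178 and 156 RPM (2.57 ± 0.17). The mannose-trimming proteins Edem1, Edem3 and Edem2 rose by 2.35, 1.97 and 1.69. Edem1 stood at 90.9 and 104 RPM in Blast, 475 and 528 RPM in prePB and 1215 and 1215 RPM in PB. For transport to the Golgi, Sec24d, a cargo-binding coat protein of COPII vesicles, rose by 3.91 ± 0.28, from 9.39 and 4.05 RPM to 100 and 116 RPM. Its relatives had smaller values: Sec24a rose by 1.25, and this call was lost without prePB replicate 2 (0.988), while Sec24b (-0.33) and Sec24c (0.24) were not called. Bet1, a SNARE, rose by 1.84 and Lman1 (ERGIC-53), a cargo receptor, rose by 1.61.

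**Figure D3:**
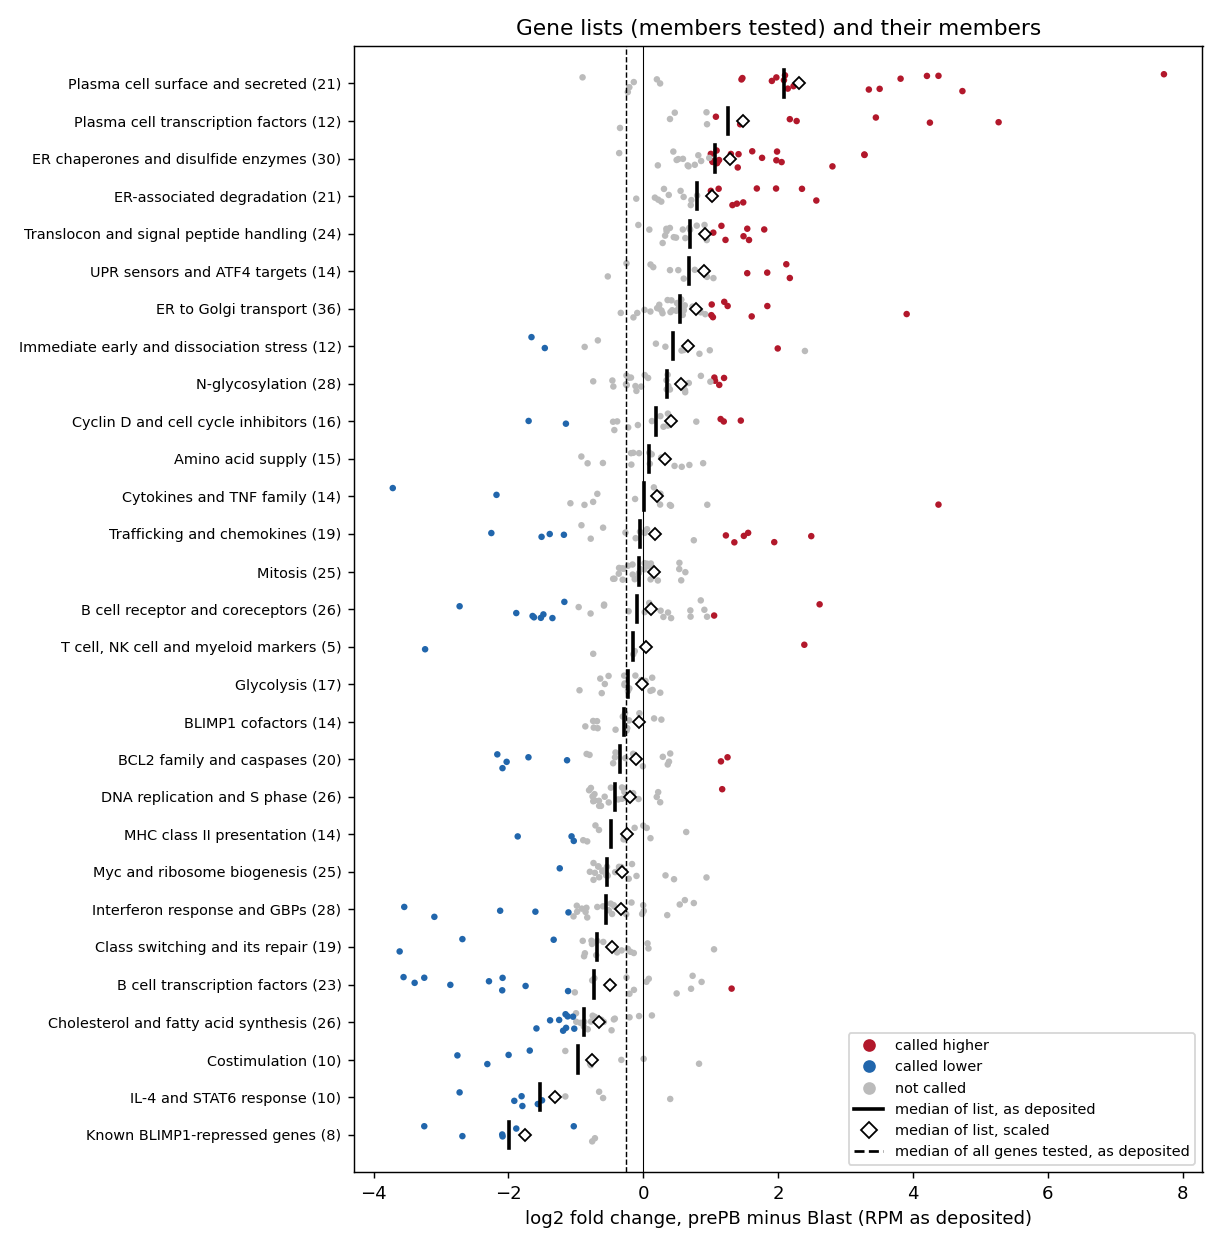
Log2 fold change between prePB and Blast (horizontal axis, RPM as deposited) of the tested members of 29 gene lists, each row a list with its number of tested members. Red and blue points are members called higher and lower, grey points are not called; black bars are list medians as deposited, open diamonds list medians with scaling, and the dashed line the median of all genes tested (-0.25). The plasma cell and ER lists lie at the top, and the BLIMP1-repressed and IL-4 lists at the bottom.

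The sensors of the unfolded protein response were read beside these genes. Of 14 tested sensors and ATF4 targets, 4 rose and 0 fell as deposited (where 4.35% of all genes rose) and 6 rose with scaling (where 5.83% did). The 4 were Xbp1, Ern1, Eif2ak3 and Chac1. Ern1 (IRE1, the nuclease that activates Xbp1 mRNA) went from 1.78 and 2.89 RPM to 13.7 and 12.9 RPM (2.12 ± 0.37), and Eif2ak3 (PERK) from 14.2 and 17.9 RPM to 41.8 and 56.1 RPM (1.54 ± 0.23). Chac1, a target of ATF4, rose by 1.84 ± 0.43, and its call was lost without Blast replicate 2 (1.33, adjusted p = 0.0844, limma) or prePB replicate 1 (1.66, adjusted p = 0.0501, limma). Of 15 tested genes of amino acid supply, 0 were called as deposited (10.4% of all genes were) and 1 with scaling (9.23% were). That 1 gene was Slc3a2, the heavy chain of large amino acid transporters, at 179 and 157 RPM in Blast and 333 and 292 RPM in prePB (0.89 as deposited, 1.12 scaled).

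Promoters of these genes were searched for a known element of the ER stress response, because many of its textbook targets moved together here. The element is CCAAT and CCACG 9 bases apart, on either strand, in the 250 bases before a start site of RefSeq (GRCm38.p6); 7091 of the 8967 genes tested were matched by Entrez ID. It was found in 14 of the 7091 genes (0.2%), in 8 of 296 genes that rose (2.7%) and in 0 of 441 that fell. The 8 genes that rose are shown with 20 bases on either side, on the strand of the gene. Capitals mark CCAAT and CCACG, or their reverse complements ATTGG and CGTGG where the element lies on the other strand.
Ero1lb, chr13:12565662-12565720: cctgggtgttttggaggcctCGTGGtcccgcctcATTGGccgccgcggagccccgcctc
Derl3, chr10:75893222-75893280: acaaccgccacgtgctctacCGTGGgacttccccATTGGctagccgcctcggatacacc
Hsp90b1, chr10:86705618-86705676: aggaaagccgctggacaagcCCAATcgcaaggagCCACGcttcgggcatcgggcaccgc
Creld2, chr15:88819500-88819558: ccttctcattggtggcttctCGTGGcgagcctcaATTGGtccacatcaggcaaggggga
Pdia6, chr12:17266471-17266529: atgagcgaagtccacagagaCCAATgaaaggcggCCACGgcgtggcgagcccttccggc
Dnajc3, chr14:118937807-118937865: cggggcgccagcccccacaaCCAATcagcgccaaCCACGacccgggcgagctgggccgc
Hspa5, chr2:34772005-34772063: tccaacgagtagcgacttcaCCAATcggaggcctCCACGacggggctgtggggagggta
Syvn1, chr19:6046512-6046570: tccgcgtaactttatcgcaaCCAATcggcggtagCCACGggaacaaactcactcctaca

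Hsp90b1 held a further element on the other strand, 107 to 89 bases before its start. The log2 fold changes of the 8 genes ran from 1.02 for Syvn1, a ubiquitin ligase of the ER, to 2.81 for Ero1lb. That of Syvn1 was 0.981 without Blast replicate 2, 0.788 without prePB replicate 1 and 0.972 with a pseudocount of 5, and that of Hspa5 is given above. Calr, Alg12, Xlr3b, Pan2, Canx and Hnrnpa3 also held the element and were not called, with log2 fold changes from -0.82 (Hnrnpa3) to 0.66 (Calr). Alg12 and Creld2 lie side by side (chromosome 15, 88805243 to 88819318 and 88819646 to 88826681). The element shown for Creld2 lies between them, so both genes may hold the same element. The part CCACG alone, which lies within the full element and, reversed, within the next motif, was found in 48.3% of all genes matched, 49.3% of those that rose and 42.4% of those that fell. TGACGTGG, the unfolded protein response element, was found in 0.96%, 2.03% and 0.91%. GNGAAAG, the core of BLIMP1 sites, was found in 23.1%, 22.0% and 24.9%. A match is a description of the letters and not evidence of binding, and no test was run on these shares.

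**Figure D4:**
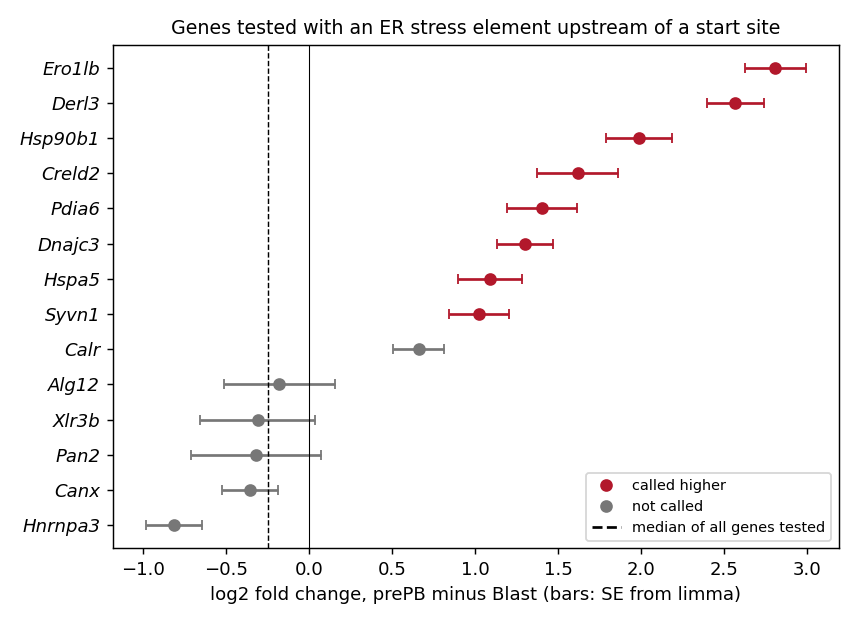
Log2 fold change between prePB and Blast (horizontal axis; bars are ± 1 SE from limma) of the 14 tested genes that hold an ER stress element in the 250 bases before a start site. Red points are called higher and grey points are not called; the dashed line is the median of all genes tested. The 8 called genes run from 1.02 (Syvn1) to 2.81 (Ero1lb), and 5 of the other 6 lie below 0 on the deposited scale (Alg12 was at 0.024 with scaling).

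IL-4 was in the medium of both groups. Of 10 tested genes of the IL-4 and STAT6 response, which include Il4ra and Stat6, 6 fell and 0 rose in prePB on both scales. Of all genes tested, 6.09% fell as deposited and 3.4% with scaling. The median log2 fold change of the list was -1.53. Its deepest fall was that of Fcer2a (-2.72), which is also counted above with the coreceptors. Il4ra, the IL-4 receptor alpha chain (chromosome 7, 125552271 to 125579474), stood at 251 and 377 RPM in Blast, 72.0 and 106 RPM in prePB and 17.3 and 15.5 RPM in PB. Its fall in prePB was -1.80 ± 0.22 (adjusted p = 3.42e-05, limma). Stat6, the factor it activates, went from 65.6 ± 4.89 RPM to 18.3 ± 2.55 RPM (mean ± SD, n = 2; -1.79 ± 0.24). Nfil3, a leucine zipper factor, fell by 1.91, and Batf, an AP-1 family factor needed for class switching, fell by 1.56. In all 4 genes both prePB libraries were below both Blast libraries. Cish, a feedback inhibitor of cytokine signalling, differed within Blast (54.8 and 164 RPM), and its fall of -1.5 was not called without Blast replicate 2 (-0.719). Ccl22 (-0.60), Il4i1 (-0.65) and Bcl2l1 (0.40) were not called. Ighe and Ighg1 were in lines not analysed here.

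Of 10 tested costimulatory genes 4 fell and 0 rose as deposited (where 6.09% of all genes fell) and 3 fell with scaling (where 3.4% did). Cd86, a ligand of CD28, stood at 120 and 126 RPM in Blast and 29.3 and 19.5 RPM in prePB (-2.31 ± 0.27). Cd83, a stabiliser of surface CD86 and class II, went from 893 and 726 RPM to 215 and 188 RPM (-2.0 ± 0.18). Slamf1, a receptor of activated lymphocytes, was uneven within Blast (24.9 and 5.49 RPM) and stood at 1.83 and 0.300 RPM in prePB (-2.76 ± 0.56), a call lost without the expression filter (adjusted p = 0.0509, limma). For Cd86 and Cd83 the Blast libraries lay close together, and for all 3 genes the groups did not overlap.

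Guanylate-binding proteins, GTPases induced by interferon, included some of the deepest falls. Gbp2 stood at 776 and 806 RPM in Blast, 91.1 and 49.0 RPM in prePB and 15.03 and 15.2 RPM in PB, while unstimulated B cells had 29.9 and 27.6 RPM. Its fall in prePB was -3.54 ± 0.23 (adjusted p = 6.99e-08, limma). Gbp1 went from 50.8 and 51.6 RPM to 4.43 and 5.85 RPM (-3.10 ± 0.39), Gbp7 fell by 2.12 and Gbp3 fell by 1.60. Of 28 tested genes in the interferon list, these included, 5 fell and 0 rose as deposited (median -0.55; 6.09% of all genes fell) and 4 fell with scaling (median -0.33; 3.4% of all genes fell). The 5th was Irgm1, which was not called with scaling (-0.90) or without Blast replicate 1 (-1.10, adjusted p = 0.0515, limma), Blast replicate 2 (-1.12, adjusted p = 0.0526, limma) or prePB replicate 2 (-0.982), nor with a pseudocount of 5 (-0.81). Gbp genes are close relatives, and reads shared among them may be counted at more than 1 gene.

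Of 19 tested genes of class switching and its repair, 3 fell and 0 rose as deposited (where 6.09% of all genes fell), and 3 fell and 1 rose with scaling. Parp3, a poly(ADP-ribose) polymerase of break repair, stood at 30.5 and 28.6 RPM in Blast and at 1.83 and 1.20 RPM in prePB (-3.61 ± 0.33). Apex1, an abasic site nuclease, fell by 1.33, a call lost without Blast replicate 2 (-1.28, adjusted p = 0.0592, limma) or prePB replicate 2 (-0.781). The mismatch repair and end-joining genes of the list were not called.

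Other genes among the 15 largest falls had varied roles. B3gnt5, the glycosyltransferase that starts the lacto-series of glycolipids, stood at 56.1 and 55.8 RPM in Blast and 3.66 and 0 RPM in prePB (-4.72 ± 0.50). Treml2, a receptor of the TREM family, went from 61.9 and 77.4 RPM to 6.11 and 3.30 RPM. Grm6, a metabotropic glutamate receptor gene, went from 22.6 ± 8.66 RPM to 0.755 ± 0.204 RPM (mean ± SD, n = 2). All 3 were lower in both prePB libraries than in either Blast library. Thy1, known as a T cell surface protein, stood at 49.8 and 109 RPM in Blast and 6.41 and 7.49 RPM in prePB (-3.23 ± 0.40). Beside it, Gzma, a granzyme of T and NK cells, was at 0.762 and 14.2 RPM in Blast and 0.611 and 1.80 RPM in prePB, and Nkg7 at 1.02 and 7.22 RPM in Blast and 0 and 0.300 RPM in prePB. Cd3e is given above at no more than 0.289 RPM, and Cd8a with higher values in both Blast libraries than in either prePB library. The list of myeloid, NK cell and T cell markers, Thy1 included, had 5 tested members. Of these 1 rose, 1 fell (Thy1) and 3 were not called, and 1 lay above 0. Of all genes tested, 4.35% rose and 6.09% fell. The part of T or NK cells in the fall of Thy1 was not tested. Kynu, Plbd1, Gpd2 and 1110032F04Rik completed the 15, with falls of -3.18, -3.40, -3.33 and -3.10. In the annotation Plbd1, Aff3, Lmo2, Ttc39c, Gpd2, Gbp2, Lta and Trp73 overlap noncoding or pseudogene loci, so some of their reads may belong to those.

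Few genes of growth and division were called, where 10.4% of all genes were called as deposited and 9.23% with scaling. Of 25 tested mitosis genes 0 were called (0 with scaling), and their median changed sign with the scaling (-0.06 and 0.16). Mki67, a proliferation marker, stood at 174 and 165 RPM in Blast, 246 and 246 RPM in prePB and 358 and 357 RPM in PB, a change of 0.53 between Blast and prePB. The 26 tested genes of DNA replication had a median of -0.425 (-0.2 with scaling), where all genes tested had -0.25 (-0.032 with scaling). Of these 26 genes 1 was called, and the other 25 lay between -0.80 and 0.25. That 1 gene, E2f2, rose by 1.17; its change was 0.905 without prePB replicate 2 and 0.996 with a pseudocount of 5, and it was then not called. Of 17 tested glycolysis genes 0 were called on the deposited scale. Of 25 Myc and ribosome biogenesis genes 1 fell and 0 rose as deposited, and 1 fell and 1 rose with scaling. The fall as deposited was that of Dkc1, a pseudouridine synthase of ribosomal RNA (-1.24 ± 0.26). These 25 genes had a median of -0.54 (-0.31 with scaling), and 3 lay above 0 (6 with scaling). The summed level of the whole list was 7616 and 7856 RPM in Blast and 5016 and 4911 RPM in prePB.

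Of 16 tested D cyclins, their kinases and cell cycle inhibitors, 3 rose and 2 fell as deposited (where 4.35% of all genes rose and 6.09% fell), and 3 rose and 1 fell with scaling. Cdk6, a cyclin D kinase, stood at 31.5 and 23.7 RPM in Blast, 81.8 and 71.0 RPM in prePB and 18.4 and 31.6 RPM in PB (1.45 ± 0.27 in prePB). Ccnd3 (cyclin D3) fell from 19.8 and 15.9 RPM to 5.80 and 3.90 RPM (-1.70 ± 0.32). Ccnd2 (cyclin D2) rose from 112 and 159 RPM to 290.3 and 323 RPM (1.19 ± 0.20), a call lost without Blast replicate 1 (0.942). Btg2, an antiproliferative gene, rose by 1.15, a call lost without Blast replicate 1 (0.933) or prePB replicate 2 (0.973). Its relative Btg1 fell by 1.15, from 234 and 234 RPM to 119 and 93.2 RPM, and was not called with scaling (-0.92) or without prePB replicate 2 (-0.974).

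Bcl2, an antiapoptotic gene, stood at 43.7 and 39.0 RPM in Blast and 10.4 and 13.8 RPM in prePB (-1.70 ± 0.25). The antiapoptotic Bcl2a1a, Bcl2a1b and Bcl2a1d fell (-2.03, -2.16 and -2.09); they are near-identical copies, so these may be 1 signal read at 3 genes. Bcl2a1b stood at 991 and 797 RPM in Blast, 211 and 184 RPM in prePB and 28.3 and 35.4 RPM in PB. Mcl1, on which plasma cells are known to depend, was not called (0.29 ± 0.15), nor was Bcl2l1 (BCL-xL, 0.40 ± 0.25). In all, 5 of 20 tested genes of the BCL2 family and the caspases fell and 2 rose as deposited (where 6.09% of all genes fell and 4.35% rose), and 4 fell and 2 rose with scaling.

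Trafficking genes moved both ways: of 19 tested, 6 rose and 4 fell as deposited (where 4.35% of all genes rose and 6.09% fell), and 6 rose and 3 fell with scaling. Ccl4, a chemokine for T cells and monocytes, stood at 1.78 and 0.867 RPM in Blast, 9.46 and 14.7 RPM in prePB and 1.42 and 2.11 RPM in PB. Ccr10, the receptor that guides antibody-secreting cells to mucosal sites, went from 2.03 and 1.73 RPM to 13.4 and 7.49 RPM (1.94 ± 0.40). Selplg (PSGL-1) rose by 1.49 ± 0.21, and Itga4, the alpha4 integrin, rose by 1.23 ± 0.18. S1pr3, a sphingosine phosphate receptor, went from 46.5 and 51.7 RPM to 8.85 and 10.2 RPM (-2.25 ± 0.27). In Ccl4, Ccr10 and S1pr3 the groups did not overlap.

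Of 26 tested genes of cholesterol and fatty acid synthesis 9 fell and 0 rose as deposited (where 6.09% of all genes fell). With scaling 3 fell (where 3.4% did). The list had a median log2 fold change of -0.877 as deposited (all genes tested -0.25) and -0.651 with scaling (all genes tested -0.032). Of the 26 genes 1 lay above 0 as deposited and 3 with scaling. Hmgcs1, an early enzyme of the mevalonate pathway, fell on both scales, from 214 and 192 RPM to 64.1 and 70.1 RPM (-1.58 ± 0.24, scaled -1.36). Idi1 also fell on both scales (-1.25, scaled -1.02). Scd1 (-1.38, scaled -1.15) was not called without Blast replicate 1 (-0.969) or prePB replicate 2 (-0.947).

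Immediate early genes, which can also respond to cell handling, differed between the prePB replicates. Fos stood at 8.38 and 2.02 RPM in Blast, 80.3 and 8.69 RPM in prePB and 173 and 23.7 RPM in PB, so replicate 1 was the higher in each. Its log2 fold change of 2.40 ± 0.83 was not called as deposited (adjusted p = 0.0524, limma) but was with scaling (2.57, adjusted p = 0.0448, limma), without prePB replicate 2 (3.93) and without Blast replicate 1 (3.21), while it was 1.58 without Blast replicate 2 and 0.865 without prePB replicate 1. Egr1 rose by 2.00 ± 0.50, from 13.3 ± 4.52 RPM (mean ± SD, n = 2) to 107 and 27.6 RPM; the call was lost without prePB replicate 1 (1.03, adjusted p = 0.126, limma) or Blast replicate 2 (1.67, adjusted p = 0.0822, limma). Egr2 fell by 1.66, and Egr3 fell by 1.46 (-0.837 and not called with a pseudocount of 5). Of 12 tested genes of this list 1 rose and 2 fell as deposited, and 4 rose and 2 fell with scaling. Of all genes tested, 4.35% rose and 6.09% fell as deposited, and 5.83% rose and 3.4% fell with scaling. The part of cell handling in these values was not tested.

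Of 14 tested genes for known partners of BLIMP1, such as histone deacetylases and methyltransferases, 0 were called, where 10.4% of all genes were. Their log2 fold changes ran from -0.86 to 0.27 (median -0.29, next to -0.25 over all genes tested).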

How the data were processed

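The data were 26 mouse 3' RNA-seq libraries, of which 8 (B cell, Blast, prePB and PB, 2 each) were fitted here. The authors deposited 1 table of expression signal in RPM, per the file headers; the submitters' processing notes name the build mm10 and the tools Cufflinks 2.2.0, Bowtie 1.0.1, TopHat 1.4.1 and cutadapt 1.11, while the rules for reads shared by several genes are not given in the sources used here. Of 26310 lines, 92 were spike-ins and 1072 gene lines (4.09% of gene lines) had empty or text values; 25146 were used. In the Blast and prePB libraries 82.6 to 87.3% of low values of at least 0.5 reads, and 76.8 to 81.3% of all low values, were whole reads (within 0.02 of a read), so the signal was not treated as counts.

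Genes that reached 5 RPM in 2 or more of the 4 Blast and prePB libraries were taken as log2(RPM + 1) and tested in limma 3.58.1 (R 4.3.3; limma-trend, group only, two-sided, 4 residual degrees of freedom), as deposited and after median-of-ratios scaling. The fit was tested on simulated data. Tables and figures used Python 3.11.15, NumPy 2.4.6, pandas 2.3.3 and matplotlib 3.10.9. At depths of 3.28 to 3.94 M reads, values near 1 RPM rest on 3 or 4 reads. Positions and promoters came from RefSeq (GRCm38.p6). Most named genes were the 15 largest rises and falls called on both scales and members of 31 gene lists, with examples by size of change. The members and lists were chosen with earlier results of these data known. Xlr3b, Pan2 and Hnrnpa3 were named because they held the ER stress element. Genes outside the lists in the closing section were chosen after their values were seen. Lists were described by counts and medians, with no set test. Alternatives were quantile normalization, pseudocounts of 0.5 and 5, other filters, the 4 libraries alone, a replicate block and each library left out. A few members of the lists are not reported here.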

Additional observations from a re-analysis of the deposited data

How the results depend on the processing

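The numbers of genes called higher and lower in prePB (390 and 546) stayed within 1.5 times under most alternatives. Fewer genes were called lower with median-of-ratios scaling (305), quantile normalization (360) and a pseudocount of 5 (356), and with a minimum of 20 RPM 235 were higher and 339 lower among 5761 genes tested. Leaving out each library in turn gave 338 to 374 genes higher and 422 to 635 lower. Replicate numbers were not treated as pairs, because the labels state no pairing. Same-numbered Blast and prePB libraries deviated together with a correlation of 0.225, the highest of all pairs of groups. The value was 0.141 for prePB with PB, 0.085 for Blast with PB, and 0.026 to 0.047 for pairs with unstimulated B cells. Whether same-numbered libraries shared a culture was not tested. With the replicate number as a block, 403 genes were higher and 582 lower. Of the genes named here as not called, Cd74 changed sign without Blast replicate 2 (-0.077) and without prePB replicate 1 (-0.11), over a range up to 0.112 with a library left out, and Ptprc without the same libraries (-0.073 and -0.023; up to 0.252); neither was called. So did Alg12 with either scaling (0.024; -0.428 to 0.065 with a library left out), Pan2 (-0.955 to 0.308), Sec24b (-0.752 to 0.087) and Sec24c (-0.04 to 0.516), none of them called. Of the same genes, Atf6, Ebf1, Fos, Ms4a1, Myc and Pou2af1 passed the call with 1 library left out, with the values given beside them. With every gene above 0 tested (16010 genes), the calls of Cd22 (adjusted p = 0.0641, limma), Klf2 (0.0638) and Slamf1 (0.0509) were lost, as were those of Apex1, Chac1, Ciita, Cish, Egr1, Scd1 and Zbtb20 (0.0597 to 0.118); those of Ciita, E2f2, Egr3, Irgm1, Syvn1 and Zbtb20 were lost with a pseudocount of 5. Depth limits low genes: at 3.28 to 3.94 M reads, the minimum of 5 RPM is about 16 to 20 reads. With 2 libraries a group the spread rests on 4 residual degrees of freedom. The cause of these differences was not tested.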

Other observations

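Some genes stood higher in prePB than in both Blast and PB. They were chosen after their values were seen, and the comparisons with Blast and with PB share the prePB libraries. Cdkn2b, which encodes the cell cycle inhibitor p15, stood at 12.2 and 6.65 RPM in Blast, 85.8 and 71.3 RPM in prePB and 28.1 and 34.9 RPM in PB. Il2rb, the beta chain of the IL-2 and IL-15 receptors, stood at 5.58 and 18.2 RPM in Blast, 50.7 and 64.7 RPM in prePB and 11.6 and 11.5 RPM in PB. Rgs16, a regulator of G protein signalling, stood at 0.254 and 1.16 RPM in Blast, 8.55 and 11.7 RPM in prePB and 0.567 and 0.234 RPM in PB. Fcer1g, the signalling chain of several Fc receptors and a gene also expressed by myeloid cells, stood at 3.55 and 0.867 RPM in Blast, 11.3 and 18.0 RPM in prePB and 5.10 and 3.75 RPM in PB. Beside it, Lyz2, a myeloid gene, stood at 0.762 and 2.89 RPM in Blast and 3.51 and 7.79 RPM in prePB, and Tyrobp at 0 and 0 RPM in Blast and 4.88 and 0.300 RPM in prePB; the part of other cells in Fcer1g was not tested.

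Surface receptors outside the lists, also chosen after their values were seen, rose in prePB as well. Csf2rb, the common beta chain of the GM-CSF, IL-3 and IL-5 receptors, went from 5.84 and 6.79 RPM to 55.1 and 75.7 RPM (3.17 ± 0.23; adjusted p = 1.75e-07, limma). Cd36, a scavenger receptor, went from 54.3 and 35.8 RPM to 244 and 193 RPM (2.27 ± 0.21). Tigit, an inhibitory receptor of lymphocytes, went from 2.92 and 3.11 RPM to 16.3 and 16.8 RPM (2.13 ± 0.32), and Entpd1 (CD39), an ectonucleotidase, from 5.08 and 7.80 RPM to 27.8 and 28.2 RPM (1.99 ± 0.29). Among the falls, Satb1, a chromatin organiser, went from 112 and 102 RPM to 21.4 and 14.4 RPM (-2.54 ± 0.21), and Dnmt3a, a DNA methyltransferase, from 60.2 and 46.8 RPM to 17.1 and 11.7 RPM (-1.84 ± 0.27).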
